A study of Mus musculus with 96 samples.

Results

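Adgrv1 was 1 of the 21990 genes of the deposited table and was taken by its symbol, which matched 1 row (Entrez gene identifier 110789). It was selected on its liver FPKM, chosen by the large rise in mice on a high-fat diet (HFD) against chow, so that its differences between diets and its levels over weeks in liver are given as a description without a test. Its islet levels and the values of other genes were not used in that choice. The libraries were islets and liver from the same 48 male C57BL/6N mice, bought at 4 weeks of age and fed chow (CD, LabDiet 5001) with 13.5% fat or an HFD with 60% fat (D12492 of Research Diets). For each diet, 4 mice were taken after 4, 8, 12, 16, 20 and 24 weeks of feeding, which gives 24 groups of 4 libraries and 96 libraries in all. CD mice of the same week served as the control of each HFD group. Islets were released by collagenase and hand-picked, and liver was sampled from one region and frozen, so that both are mixtures of cell types. The unit was FPKM, the number of fragments per kilobase of transcript, scaled to the mapped total of the library.

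Adgrv1 encodes the adhesion G protein-coupled receptor V1, also called VLGR1, a very large receptor whose extracellular part is built mostly of Calx-beta repeats and also holds EAR repeats. It is best known from the inner ear, where it forms the ankle links between the stereocilia of hair cells together with whirlin and PDZD7, and its loss causes a form of Usher syndrome, with deafness and retinal degeneration. Like other adhesion GPCRs it is cleaved near the membrane, and the membrane-bound part has been linked to inhibitory G proteins and lower adenylyl cyclase activity.

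The gene lies on the minus strand of chromosome 13 at chr13:81095066-81633388 (GRCm38, coordinates of the table), and spans 538323 bases with 14 transcript models, the longest of 19369 bases. In the GENCODE M21 annotation of the same build, transcript Adgrv1-201 has 90 exons, 19338 bases and 6298 codons before the stop. The end of the coding sequence is shown because it encodes the tail by which the receptor binds the PDZ domains of whirlin and PDZD7, partners whose levels are given further on. These are the last 60 coding bases, 18838 to 18897 of the coding sequence, at chr13:81095383-81095442 on the minus strand in the last coding exon, with the last 4 codons before the stop codon (tga) in capitals.
Adgrv1-201 coding end: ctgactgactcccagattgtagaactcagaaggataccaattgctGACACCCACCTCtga
GENCODE lists an antisense gene (9330111N05Rik), an unclassified transcript (Gm48566) and a processed pseudogene (Gm48567) inside or across the span of Adgrv1. These share 0 exonic bases with Adgrv1 and have no row of their own in the table. Whether the libraries kept the strand is not given in the sources used here.

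The tissue of the libraries was checked by their defining transcripts. Albumin (Alb) was between 16734 and 46057 FPKM in liver and at most 48.8 FPKM in islets, and Ins2, the main mouse insulin gene, was at least 394273 FPKM in islets and at most 2467 FPKM in liver. Insulin transcripts were thus found in some liver libraries, with a median Ins2 of 21.6 FPKM in CD and 0 in HFD liver. At the highest of these levels, Ins2 in liver was still far under that of any islet library. As the table holds no read counts, the counting error of single values is unknown.

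In liver, Adgrv1 was higher in HFD than in CD mice at all 6 time points, and at no week did the values of both diets overlap. Over all weeks, CD livers ranged from 1.01 to 3.04 FPKM with a median of 1.78 (n = 24), and HFD livers from 2.96 to 36.2 FPKM with a median of 15.0 (n = 24). These levels include the values that chose the gene, so the weekly values that follow describe the response and carry no test.

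At week 4, the CD livers had 1.4, 1.23, 1.64 and 1.3 FPKM, and the HFD livers 7.44, 4.68, 8.1 and 2.96 FPKM. The HFD mean was 4.16 times the CD mean, and the lowest HFD liver was 1.80 times the highest CD liver. At this week 0.0506% of the 9875 genes tested in liver (5 genes) were called as different between diets (limma, adjusted p under 0.05, either direction).

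At week 8, the CD livers had 1.6, 1.76, 1.52 and 1.82 FPKM, and the HFD livers 14.99, 9.05, 11.84 and 10.59 FPKM. At week 12, the CD livers had 2.07, 1.8, 2.73 and 1.22 FPKM, and the HFD livers 22.52, 14.68, 10.77 and 14.23 FPKM. The ratio of the HFD to the CD mean was 6.94 at week 8 and 7.95 at week 12, with the CD levels still near 2 FPKM.

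At week 16, the CD livers had 2.42, 2.51, 1.8 and 2.35 FPKM, and the HFD livers 36.21, 28.68, 34.64 and 27.38 FPKM. This group had the highest mean of all 24 groups, at 31.7 ± 4.35 FPKM (SD, n = 4), against 2.27 ± 0.320 FPKM in CD liver (SD, n = 4). It was also the most uniform HFD liver group, with a coefficient of variation of 13.7%, and the ratio of means reached 14.0.

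At week 20, the CD livers had 1.74, 1.54, 2.3 and 1.9 FPKM, and the HFD livers 14.93, 30.88, 18.75 and 5.99 FPKM. The HFD livers of this week were the most spread, with a coefficient of variation of 58.5%, from mouse HFD518 at 5.99 to mouse HFD516 at 30.88 FPKM. Even the lowest of them was 2.60 times the highest CD liver. At week 24, the CD livers had 1.01, 3.04, 2.22 and 1.58 FPKM, and the HFD livers 34.81, 16.44, 26.13 and 29.49 FPKM, a ratio of means of 13.6.

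**Figure D1:**
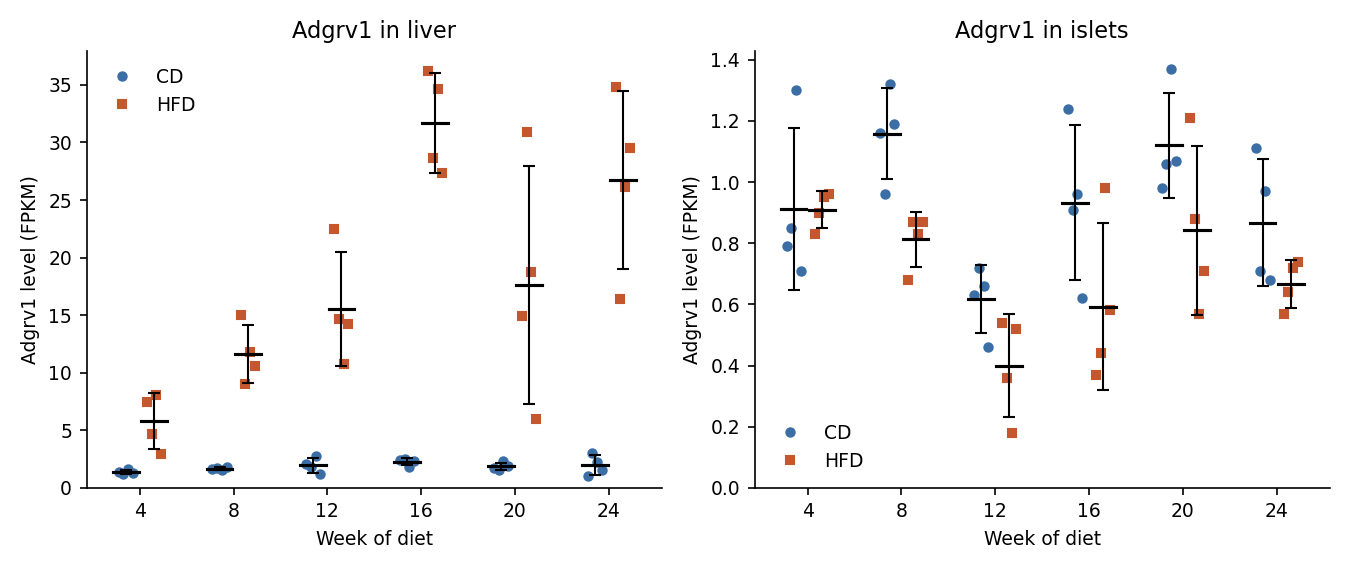
Adgrv1 level (FPKM) by week of diet in liver (left) and islets (right, on its own smaller scale), where each point is 1 mouse, circles are CD, squares are HFD, horizontal bars are group means and vertical bars 1 SD (n = 4). HFD livers lie above all CD livers at each week, from 2.96 FPKM at week 4 up to 36.2 FPKM at week 16, whereas the islet values of both diets stay at or below 1.37 FPKM.

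On the log2(FPKM + 1) scale, which understates the change of low values, the limma estimate of HFD minus CD in liver started at 1.43 (SE 0.24) in the first group, week 4, and was 2.22 (SE 0.13) after 8 and 2.46 (SE 0.22) after 12 weeks. It was largest after 16 weeks, at 3.32 (SE 0.12), with 2.51 (SE 0.40) after 20 and 3.23 (SE 0.25) after 24 weeks. Counted from the largest rise, Adgrv1 was number 7, 20, 12, 4, 17 and 3 among the genes tested at weeks 4, 8, 12, 16, 20 and 24. It passed the filter on low values (4 or more of the 8 libraries at 1 FPKM or over) at each week in liver, also by its CD libraries, all of which were over 1 FPKM.

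The gene had been put forward as the strongest lasting liver response. Its place among the genes tested at all 6 weeks is given here as part of that choice. Of 9563 genes tested at all 6 weeks in liver, only 2 had an estimate of at least 1 at each week, Adgrv1 and Serpina7, the gene of thyroxine-binding globulin. By the median over weeks, Adgrv1 was second at 2.49, after Lgals1 (galectin-1) at 2.60, which was under 1 in at least 1 week. Adgrv1 was thus not the highest by this median, and the bound of 1 was also met by Serpina7. Genes under the filter at 1 or more weeks have no place in this order. Among them, Cidea was tested at 4 weeks (estimates from 4.14 to 5.41) and Cidec at 5 (3.07 to 4.18). Serpina7 and Lgals1 are named after their values were seen.

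In order of their means, the HFD livers of weeks 16, 24, 20, 12, 8 and 4 had 31.7, 26.7, 17.6, 15.6, 11.6 and 5.79 FPKM, and each of these groups but week 8 against week 4 overlapped with the next. The lowest liver of week 8 (9.05 FPKM) was above the highest of week 4 (8.1 FPKM). The CD means were 1.39, 1.68, 1.96, 2.27, 1.87 and 1.96 FPKM in the order of the weeks, and each CD liver group overlapped with the next in the order of the means. Week of diet and age of the mice cannot be told apart here.

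In islets, which the choice of the gene did not use, Adgrv1 was low in both diets and lower in HFD mice. Over all weeks the mean was 0.935 ± 0.254 FPKM in CD (SD, n = 24) and 0.704 ± 0.238 FPKM in HFD islets (SD, n = 24). With diet labels permuted within weeks, the mean difference was -0.18 (SE 0.044) on the log2(FPKM + 1) scale (two-sided permutation test with 100000 resamples, p = 0.00014). Of the 24 HFD islet samples, 19 were under the mean log2(FPKM + 1) of the CD islets of their week. With median ratio scaling of the libraries, the difference was again -0.18 (p = 0.00019, the same permutation test).

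None of the 6 weekly islet differences passed the test after adjustment. At week 4, the CD islets had 0.79, 0.85, 1.3 and 0.71 FPKM and the HFD islets 0.83, 0.9, 0.95 and 0.96 FPKM, a difference of 0.01 (SE 0.098). At week 8, the CD islets had 1.16, 0.96, 1.32 and 1.19 FPKM and the HFD islets 0.68, 0.87, 0.83 and 0.87 FPKM. Week 8 was the only week at which all 4 HFD islets lay below all 4 CD islets, with a difference of -0.25 (SE 0.062). The exact two-sided permutation test gave p = 0.029 there, the smallest value that 4 against 4 allow, and 0.17 after adjustment over the 6 weeks. At this week the median of all islet genes tested was also lower in HFD, by -0.11 on the same scale, and under median ratio scaling the difference of Adgrv1 was -0.20.

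At week 12, the CD islets had 0.63, 0.72, 0.66 and 0.46 FPKM and the HFD islets 0.54, 0.36, 0.18 and 0.52 FPKM. At week 16, the CD islets had 1.24, 0.91, 0.96 and 0.62 FPKM and the HFD islets 0.37, 0.44, 0.98 and 0.58 FPKM. The difference was -0.21 (SE 0.10) at week 12 and -0.28 (SE 0.15) at week 16, with overlap at both. At week 20, the CD islets had 0.98, 1.06, 1.37 and 1.07 FPKM and the HFD islets 1.21, 0.88, 0.57 and 0.71 FPKM. At week 24, the CD islets had 1.11, 0.71, 0.97 and 0.68 FPKM and the HFD islets 0.57, 0.64, 0.72 and 0.74 FPKM. The difference was -0.21 (SE 0.12) at week 20 and -0.16 (SE 0.087) at week 24. From week 12 to week 24 the exact permutation p was between 0.086 and 0.17, and 0.21 after adjustment at each of these weeks. In islets Adgrv1 passed the filter on low values at week 20 only.

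**Figure D2:**
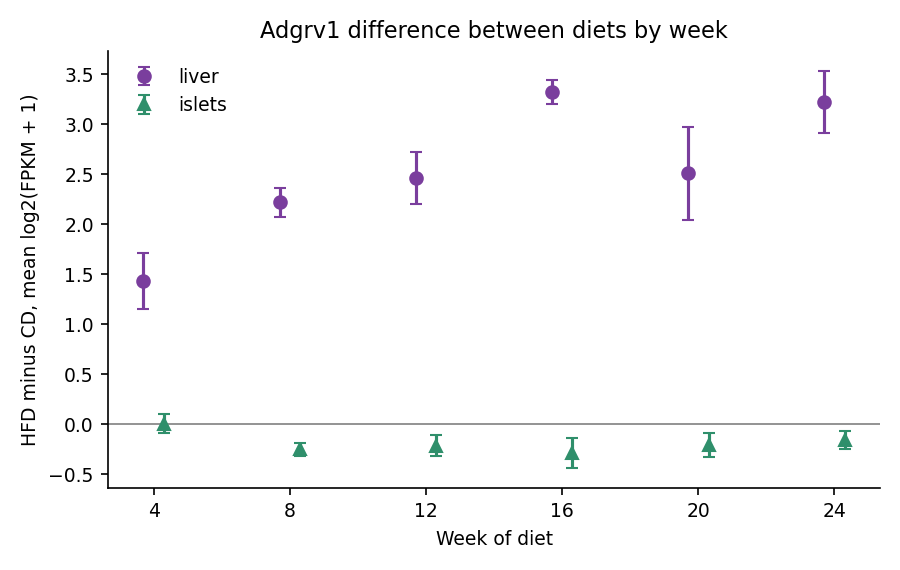
Difference of the mean log2(FPKM + 1) of Adgrv1 between HFD and CD mice by week of diet, with circles for liver and triangles for islets, and bars of 1 SE from the spread of both groups of 4. The liver values run from 1.43 at week 4 to 3.32 at week 16, and the islet values lie between 0.01 and -0.28.

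The islets of HFD mice also differed in their cell type markers. The 2 alpha cell markers (Gcg, Irx2) and the 3 delta cell markers (Sst, Hhex, Rbp4) all fell at 1 or more weeks (limma, adjusted p under 0.05), as did 10.4% of the 12090 islet genes tested. Of the 7 beta cell markers 5 rose at 1 or more weeks, against 8.88% of these genes. The summed FPKM of the alpha markers had a median of 11822 (range 6681 to 15024) in CD and 4229 (range 951 to 14285) in HFD islets, and did not overlap between diets at 5 of the 6 weeks. That of the delta markers was 3646 (range 2176 to 4843) in CD and 1469 (range 330 to 3995) in HFD islets, with no overlap at any of the 6 weeks. That of the beta markers was 663049 (range 574924 to 851245) in CD and 782367 (range 615120 to 991863) in HFD islets. The beta sums did not overlap at 2 of the 6 weeks. None of these markers was at 0 throughout. How many of all islet genes separate between diets at a week is not given here. In bulk samples, fewer cells of a type and less RNA per cell cannot be told apart.

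With the group means removed, so that differences between mice of one diet and week are left, the Pearson correlation of Adgrv1 with the mean log2 level of the delta markers over the 48 islet libraries was 0.46, and that with the alpha markers 0.45. These were the highest of the 13 marker lists, and that with the beta markers was -0.19. With the group means kept, the highest was that with the neural or glial markers, at 0.66. The libraries share their normalization, and these values are a description. The part of the alpha and delta cell content in the islet difference of Adgrv1 was not tested. Of the hepatocyte list, Alb had a median of 0.58 FPKM in CD and 2.78 FPKM in HFD islets and was called at none of the 3 weeks tested. Ttr (832 and 562 FPKM) and Ass1 (10.9 and 4.98 FPKM) were called lower at 3 weeks each, where 10.4% of the islet genes tested fell at 1 or more weeks. The summed FPKM of this list, most of it Ttr, had a median of 866 in CD and 597 in HFD islets, with no member called higher. It did not overlap between diets at 3 of the 6 weeks. Apoa1, Cyp2e1 and Cps1 had medians of 0.85, 0.105 and 0 FPKM in CD and 0.865, 0.43 and 0.025 FPKM in HFD islets. Those of Hnf4a and Tat were 7.71 and 11.64 FPKM in CD and 6.72 and 10.8 FPKM in HFD islets. The list gave r = 0.31 with Adgrv1 within groups, and the part of liver RNA was likewise not tested.

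**Figure D3:**
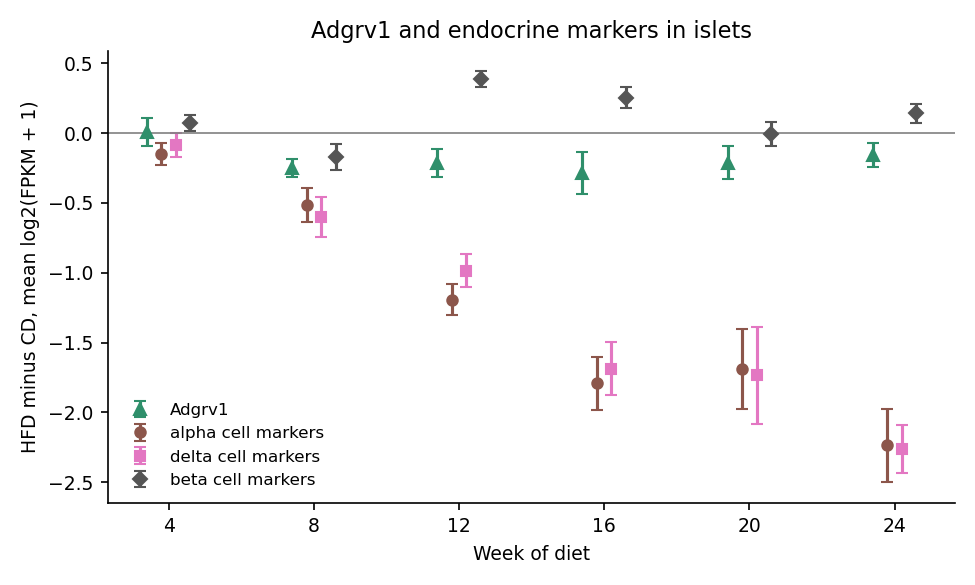
HFD minus CD difference in islets by week of diet for Adgrv1 (triangles) and for the mean log2(FPKM + 1) of the alpha (circles), delta (squares) and beta (diamonds) cell marker lists, with bars of 1 SE (4 mice per diet). The alpha and delta lists go down from -0.15 and -0.09 at week 4 to -2.24 and -2.26 at week 24, while Adgrv1 stays between 0.01 and -0.28.

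Liver and islets of CD mice were compared next, since FPKM are scaled per length and library. The CD liver groups had means of 1.39 to 2.27 FPKM and the CD islet groups of 0.618 to 1.16 FPKM, and the lowest CD liver mean was above the highest CD islet mean. The CD livers were also the controls of the contrast that chose the gene. They make the comparison of Adgrv1 a description without a test. With week as a covariate and the tissues of a mouse not paired, liver minus islets was 0.55 (SE 0.061, limma). In this comparison 94.9% of 11787 genes were called and the median of all genes was -0.66. Ins2 alone had a median of 459105 FPKM in CD islets. With median ratio scaling over both tissues, the difference of Adgrv1 was 0.82 and the median of all genes -0.26. In order of their means, all 6 HFD liver groups came first, then the 6 CD liver groups, then the 12 islet groups. Neighbours in this order overlapped throughout, except for HFD liver at week 8 against week 4 and HFD liver at week 4 against CD liver at week 16.

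No relation was detected between the level in the liver of a mouse and that in its islets. With the group means removed, Pearson's r over the 48 mice was 0.098 (permutation p = 0.64) and Spearman's rho 0.11 (permutation p = 0.49), with 100000 two-sided resamples within diet and week. Without mice HFD518 and HFD516, the 2 farthest from the median in liver, r was 0.036 (permutation p = 0.80). Adjusted over these 2 measures, p was 0.64 for both r and rho.

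The transcripts of whirlin and PDZD7, partners of the receptor in the ankle links, were at low levels in liver in both diets. Whrn (whirlin) had a median of 0.35 FPKM in CD and 0.23 FPKM in HFD liver, and Pdzd7 one of 0.04 FPKM in both. Thus the transcripts of these PDZ proteins, known to bind the tail printed above, were at or under 0.58 FPKM in every liver library. Protein levels were not measured here. Of the 10 genes of this list, which also holds other Usher genes, 3 passed the filter in liver, and none was called at any of the 6 weeks. These were Vezt (vezatin, a junction protein), Myo7a (an unconventional myosin) and Cib2 (a calcium-binding protein), with estimates between -0.59 and 0.19. Their medians were 1.75, 1.73 and 5.01 FPKM in CD and 1.75, 1.72 and 4.33 FPKM in HFD liver.

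In islets, whirlin and harmonin transcripts were at levels above that of Adgrv1. Whrn had a median of 20.7 FPKM in CD and 20.6 FPKM in HFD islets, Ush1c (harmonin, a PDZ protein) 27.1 and 27.8 FPKM. Both genes were called at no week. Pcdh15, the protocadherin of the tip links, fell at week 8, from 2.80 ± 0.35 to 1.46 ± 0.42 FPKM (SD, n = 4 each), a log2 difference of -0.64 (limma, adjusted p = 0.020). It fell again at week 24, from 2.11 ± 0.54 to 0.795 ± 0.25 FPKM (SD, n = 4 each), a log2 difference of -0.79 (limma, adjusted p = 0.0017). It was the only called gene of the list, of which 6 or 7 members were tested at each week. Of all islet genes tested, 5.27% were called at week 8 and 8.3% at week 24.

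The other 29 adhesion GPCR genes gave 2 calls in liver over the 6 weeks. Between 9 and 11 of them were tested at each week in liver, with a median estimate between -0.12 and 0.37 where the median of all genes was between 0.04 and 0.11. Adgrf1 was called lower at week 8, from 1.86 ± 0.51 to 0.133 ± 0.14 FPKM (SD, n = 4 each), with a log2 difference of -1.33 (limma, adjusted p = 0.0024). It was tested at this 1 week only and passed the filter by its CD libraries alone, as no HFD liver was over 0.82 FPKM. The direction of its call thus follows in part from the filter. Adgre1, which encodes the macrophage marker F4/80, was called higher at week 20, from 2.62 ± 0.40 to 6.33 ± 1.6 FPKM (SD, n = 4 each), with a log2 difference of 1.00 (limma, adjusted p = 0.014). These were the only calls of the list in liver, where 7.49% of all genes tested were called at week 8 and 2.47% at week 20.

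By their median in CD liver, Adgra3 (7.07 FPKM) and Adgrl2 (6.93 FPKM) were the highest of these genes, and 6 of the 29 were above the 1.78 FPKM of Adgrv1. In HFD liver the median of Adgrv1 (15.0 FPKM) was above all 29, of which the highest was Adgra3 at 7.64 FPKM. FPKM is scaled per length, so that levels can be set side by side, and the lowest HFD livers (from 2.96 FPKM) lay within the range of several of these genes.

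**Figure D4:**
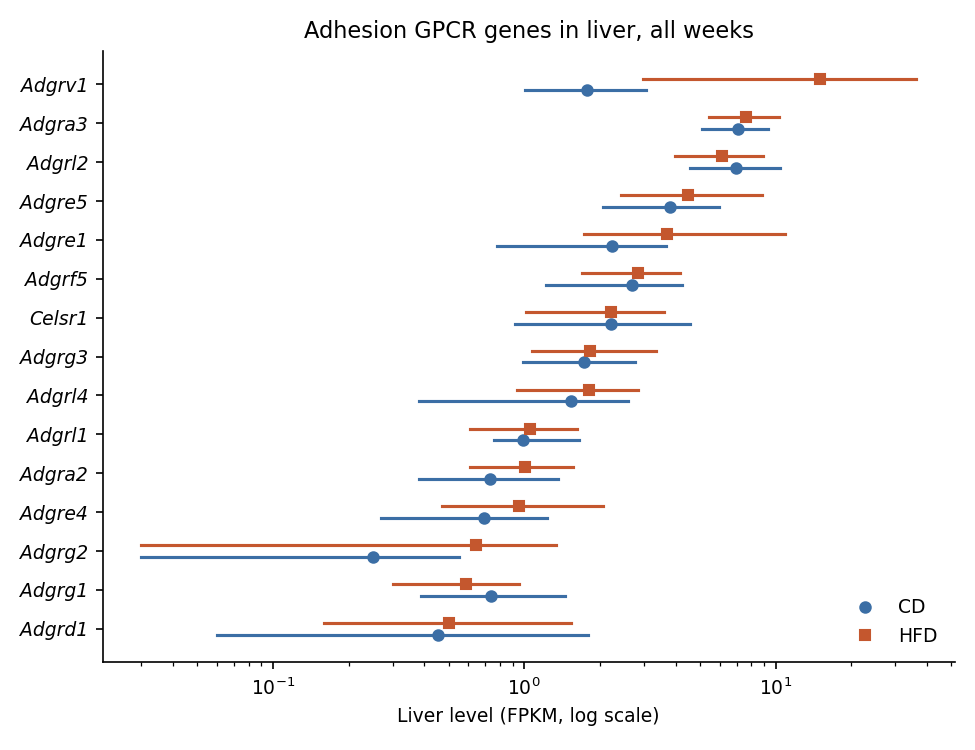
Liver level (FPKM, log axis) of Adgrv1 and of the adhesion GPCR genes with a median of at least 0.5 FPKM in either diet, with the median (circles CD, squares HFD) and a line from the lowest to the highest of 24 libraries. Adgrv1 goes from a median of 1.78 FPKM in CD to 15.0 FPKM in HFD liver, and for each gene shown the lines of both diets overlap, for Adgrv1 between 2.96 and 3.04 FPKM.

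In islets, 13 or 14 adhesion GPCR genes were tested at each week, and 6 calls were made. Adgrd1 and Adgrf5 fell at week 12, by 0.46 and 0.41 on the log2 scale, Celsr1 fell by 0.45 at week 16 and Celsr3 by 0.42 at week 20. Adgrd1 passed the filter at week 12 only. Adgre1 rose by 0.36 at week 16 and Adgrb3 by 0.29 at week 24. The share of all islet genes called was 0% after 4 weeks (0 genes by limma at adjusted p under 0.05, 854 at unadjusted p under 0.05). From week 8 on it was 5.27%, 4.53%, 8.45%, 4.74% and 8.3% in the order of the weeks. Adgrg1, the most abundant of them, had a median of 80.8 FPKM in CD and 85.5 FPKM in HFD islets and was called at no week.

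The 13 further genes whose proteins carry Calx-beta or EAR repeats, among them the sodium-calcium exchangers and the Frem and Lgi genes, were all under the filter in liver at each week, so that none could be tested. In islets 6 of them were tested at each week. At week 16, Slc8a1 (a sodium-calcium exchanger) fell by 0.36, Lgi1 by 0.58 and Lgi4 by 0.48 on the log2 scale, and Lgi4 also fell by 0.41 at week 20.

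Of the 21 genes of G protein alpha subunits and adenylyl cyclases, 11 or 12 were tested at each week in liver. Gnas, which encodes the stimulatory alpha subunit, was called higher at week 12, from 296 ± 9.7 to 361 ± 8.1 FPKM (SD, n = 4 each), a log2 difference of 0.28 (limma, adjusted p = 0.038). It was the only call of this list in liver, where 10.6% of all genes tested were called at this week, 7.43% at week 16 and 0.837% in the last week. The call was lost under median ratio scaling and without any 1 of 5 libraries (mice CD306, CD307, CD308, HFD313 and HFD318). The inhibitory subunits Gnai2 (median 45.3 FPKM in CD and 52.7 FPKM in HFD liver) and Gnai3 (21.4 and 24.8 FPKM) were called at no week in liver.

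In islets, 14 genes of this list were tested at each week. From week 8 to week 24, 5.27%, 4.53%, 8.45%, 4.74% and 8.3% of all islet genes tested were called. Gnai1, an inhibitory alpha subunit, fell at weeks 12, 16 and 24, by 0.64, 0.76 and 0.82 on the log2 scale, and at week 24 from 8.36 ± 0.98 to 4.28 ± 0.25 FPKM (SD, n = 4 each; limma, adjusted p = 4.8e-05). Adcy3, an adenylyl cyclase, fell by 0.38 at week 16 and by 0.46 at week 20, and Gnai2 fell by 0.42 at week 8. These falls stood beside those of the alpha and delta cell markers in the same islets, and the part of the cell content in them was not tested.

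In the 4 lists together, liver calls numbered 0, 1, 1, 0, 1 and 0 from week 4 to week 24, and islet calls 0, 2, 3, 7, 3 and 3. Of all genes tested at these weeks, 0.0506%, 7.49%, 10.6%, 7.43%, 2.47% and 0.837% were called in liver. The shares in islets were 0%, 5.27%, 4.53%, 8.45%, 4.74% and 8.3%. Single libraries moved the counts of list genes by more than 1.5 times at some weeks. Liver counts became 2 at week 8 without CD203 or HFD217, 2 at week 12 without CD304 or HFD316, 5 at week 16 without HFD411 and 1 without HFD416, and 2 at week 20 without HFD518. In islets the count of week 8 became 1 without CD205, HFD211 or HFD213 and 5 without HFD217, and that of week 12 became 1 without HFD316 and 5 without HFD318. The islet count of week 20 became 0 without CD502, HFD517 or HFD518, 1 without CD505 or CD507 and 8 without HFD511.

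The neighbours of Adgrv1 on the chromosome were not called in liver. Within 1 Mb of it the table holds Arrdc3, Lysmd3, Polr3g, Mblac2 and Cetn3, and all 5 were tested at all 6 weeks in liver with no call. Of all liver genes tested, between 0.0506% and 10.6% were called at a week, so that 5 genes are too few to read a result from this. Arrdc3, an arrestin-domain gene, had estimates between 0.25 and 0.76, and medians of 29.1 FPKM in CD and 44.4 FPKM in HFD liver. Lysmd3, the nearest gene beyond the start of Adgrv1, had medians of 4.65 and 5.34 FPKM and estimates between -0.03 and 0.31. In islets, Cetn3 (a centrin) was called lower at week 8, by 0.28 on the log2 scale, and the others were not called. Of all islet genes tested, 5.27% were called at that week.

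Several genes followed the liver pattern of Adgrv1 closely. Likeness was measured by Pearson's r of log2(FPKM + 1) over the 48 liver libraries, among 10406 genes that reached 1 FPKM in 12 or more of them, whose median r was 0.19. The libraries share the diet difference that chose Adgrv1, so that r is a description. The filter could also be passed by HFD libraries alone, which favours genes that are high in them. Slc35f2, Osbpl3 and Kbtbd11 entered in this way, with at most 0.43, 0.73 and 0.22 FPKM in any CD liver. The 10 highest were Slc35f2 (r = 0.93, a solute carrier), Osbpl3 (0.92, an oxysterol-binding protein relative), Gpc1 (0.91, the heparan sulfate proteoglycan glypican-1), Cidea (0.91) and Cidec (0.89), which both encode proteins that enlarge lipid droplets, Haus8 (0.89), Pitrm1 (0.89, a mitochondrial peptidase), Kbtbd11 (0.89), Synj2 (0.88, a phosphoinositide phosphatase) and Endod1 (0.88).

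Most of these genes overlapped between diets at 1 or more weeks. Like Adgrv1, Gpc1 and Synj2 had all HFD livers above all CD livers at 6 of 6 weeks, while 7 of the other 8 did so at 5 weeks and Haus8 at 4. These genes were chosen by r with Adgrv1, which itself separated at each week, so that such counts follow in part from the choice. The share of all liver genes that separate in this way is not given here. At week 4, the mean of Osbpl3 was 0.108 ± 0.022 FPKM in CD against 0.268 ± 0.19 FPKM in HFD liver (SD, n = 4 each), and Cidea 0.030 ± 0.038 and 0.020 ± 0.023 FPKM. At week 16, Osbpl3 was at 0.430 ± 0.19 FPKM in CD against 7.52 ± 2.8 FPKM in HFD liver, and Cidea 0.188 ± 0.069 and 50.5 ± 12 FPKM. Gpc1 went from 2.55 ± 0.33 FPKM in CD to 4.995 ± 0.50 FPKM in HFD liver at week 4.

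In islets the ranges of both diets overlapped for each of these 10 genes. Osbpl3 had a median of 2.90 FPKM in CD and 3.64 FPKM in HFD islets, and Gpc1 2.97 and 3.06 FPKM. Cidea and Cidec had medians of at most 0.26 FPKM in either diet.

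**Figure D5:**
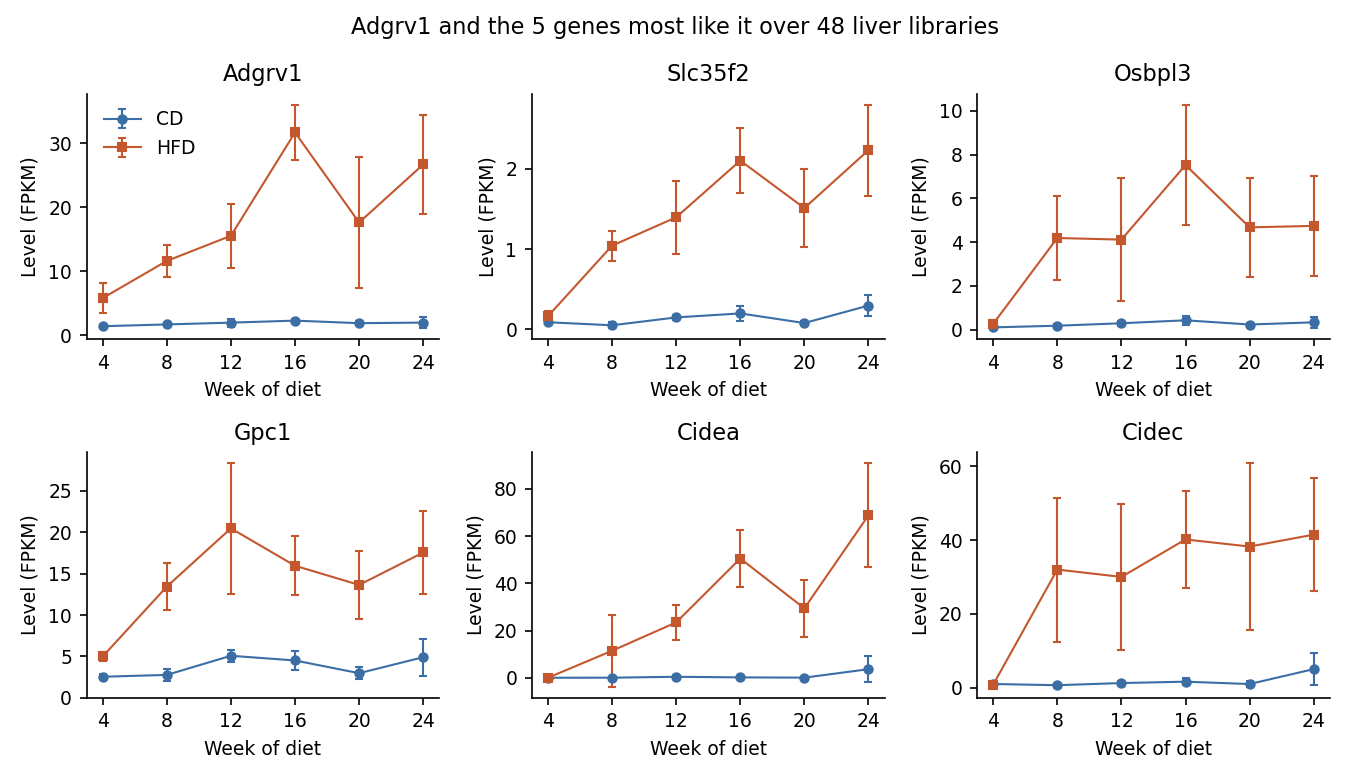
Liver level (FPKM) by week of diet of Adgrv1 and of the 5 genes with the highest Pearson r with it, each on its own scale, as means of 4 mice with bars of 1 SD (circles CD, squares HFD). At week 4 the HFD against the CD mean is 5.79 and 1.39 FPKM for Adgrv1, 4.995 and 2.55 FPKM for Gpc1, 0.268 and 0.108 FPKM for Osbpl3, 0.165 and 0.090 FPKM for Slc35f2, 0.807 and 0.972 FPKM for Cidec and 0.020 and 0.030 FPKM for Cidea.

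The lowest r were those of Slco2a1 (-0.86, a prostaglandin transporter), Cadm4 (-0.84, a cell adhesion molecule), Kcp (-0.82), Tm7sf2 (-0.81, a sterol reductase of cholesterol synthesis) and Cyp2g1 (-0.80, a cytochrome P450). Slco2a1 had a median of 13.7 FPKM in CD and 6.62 FPKM in HFD liver, and Cadm4 7.26 and 2.39 FPKM. Kcp had all HFD livers below all CD livers at 6 weeks, and Slco2a1 and Cadm4 at 5, counts that again follow in part from the choice by r.

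With the group means removed as for islets, the highest r was 0.66 and the median over all genes 0.12. It belonged to the gene with Entrez identifier 71779, a ubiquitin ligase gene that RefSeq names Marchf8 and whose symbol the table holds as a date. Then came Atmin (0.63), Bdh1 (0.60, ketone body dehydrogenase), Gpd2 (0.59, mitochondrial glycerol phosphate dehydrogenase), Mmp12 (0.59, macrophage elastase), Me1 (0.58, the malic enzyme that makes NADPH), Gatad2a (0.58), Coa5 (0.57), Pde4a (0.56, a cyclic AMP phosphodiesterase) and Pigq (0.56). The 10 genes highest over all libraries were lower on this measure, from Synj2 at 0.55, Cidec at 0.52 and Osbpl3 at 0.52 down to Slc35f2 at 0.35 and Pitrm1 at 0.25. Over the CD livers alone, r of these 10 genes ran from 0.16 (Haus8) to 0.83 (Osbpl3).

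Markers of other cell types in liver were set beside the Adgrv1 values. Of the 9 stellate cell or fibroblast markers 5 rose at 1 or more weeks, among them Col1a1, Col1a2 and Col3a1, and of the 7 macrophage markers 3 rose, among them Cd68, where 15.2% of the 10537 liver genes tested did so. Of the 8 hepatocyte markers, Cps1 fell at 3 weeks and Ass1 at 1, and Cyp2e1 rose at 1, where 3.06% of these genes fell at 1 or more weeks. The summed FPKM of the stellate list had a median of 65.9 (range 30.8 to 99.4) in CD and 103.9 (range 56.3 to 176) in HFD liver, without overlap at weeks 4, 12 and 16. That of the macrophage list was 91.2 (range 46.2 to 163) in CD and 127 (range 60.6 to 268) in HFD liver. That of the hepatocyte markers, most of it Alb, was 52361 (range 35156 to 70070) in CD and 52925 (range 28299 to 64082) in HFD liver and overlapped at each week, while their mean log2 level differed most at week 20, by -0.53 (SE 0.18). Within diet and week, r with Adgrv1 was 0.19 for the stellate, -0.03 for the macrophage and -0.29 for the hepatocyte list, and over all 48 libraries 0.71, 0.40 and -0.45. The part of these cell types in the Adgrv1 values was not tested. The macrophage sums also did not overlap between diets at weeks 12 and 20. How many of all liver genes separate at a week is not given here.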

How the data were processed

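The authors sequenced poly(A) RNA, reverse transcribed with random hexamers, on a BGISEQ-500. The labels name HISAT2 2.0.4, Bowtie2 2.2.5, RSEM 1.1.12, DESeq2 (without a version) and GRCm38.p5, with no role stated. The deposited values were FPKM of 21990 genes, of which 20155 had values, with 2 decimals and no counts. The authors' own group means and comparison columns (fold changes, p-values, q-values, by DEGseq per the file headers) were not used. Libraries were grouped by the mouse identifiers in the titles.

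From the FPKM, log2(FPKM + 1) was computed. Limma 3.58.1 (R 4.3.3) with trend and robust variances was fitted to all genes that reached 1 FPKM in 4 or more of 8 libraries (or the same share of larger sets), after it was tested on simulated data. P-values were adjusted by Benjamini-Hochberg over all genes tested, and a gene was called at an adjusted p under 0.05. Single values were tested by permutation (Python 3.11.15, scipy 1.17.1). Genes named were Adgrv1, members of fixed lists, the genes most and least like it, and genes within 1 Mb. The members and lists were chosen with earlier results of these data known, and some genes are not reported here. Tests of Adgrv1 over weeks within liver and between tissues, which use values that chose the gene, were run and their p-values are not given. Alternatives were a pseudocount of 0.1, no filter, median ratio scaling, one fit of the 12 groups of a tissue, the mouse as a block, and leaving out each mouse. Islet and liver libraries of one number come from the same mouse.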

Additional observations from a re-analysis of the deposited data

Results flagged for a closer look

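The estimates of Adgrv1 were of opposite sign in liver and islets at 5 of the 6 weeks, and at 3 of them without exception among the mice. At weeks 8, 12 and 24, every HFD liver lay above the mean log2(FPKM + 1) of the CD livers of its week and every HFD islet sample below that of the CD islets. The islet difference on the log2(FPKM + 1) scale was -0.2501 at week 8, -0.2138 at week 12 and -0.158 at week 24, against 2.22, 2.46 and 3.23 in liver. After 4 weeks of diet it was 0.01, after 16 weeks -0.28 and after 20 weeks -0.21, and no weekly islet difference passed the exact permutation test after adjustment (adjusted p at least 0.17). The difference between the tissues was not tested. In each of the 24 groups of 4, the most extreme mouse was compared with the others by Dixon's ratio, and 0 groups passed the critical value.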

How the results depend on the processing

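With a pseudocount of 0.1, the liver difference of Adgrv1 grew to 2.70 (week 8), 2.93 (week 12), 3.75 (week 16) and 3.75 (week 24), and under median ratio scaling it was between 1.38 and 3.23 over the weeks. Without 1 mouse at a time it ran from 1.27 to 1.67 (week 4), 2.10 to 2.32 (week 8), 2.28 to 2.61 (week 12), 3.25 to 3.38 (week 16), 2.19 to 2.92 (week 20) and 3.06 to 3.43 at week 24. The islet difference over all weeks was -0.39 with a pseudocount of 0.1 (permutation p = 0.00012) and -0.20 to -0.17 without 1 mouse at a time (permutation p at most 0.00044). The islet value of week 4, near 0, ran from -0.043 to 0.099. With the mouse as a replicate block, liver minus islets in CD mice stayed at 0.55. Leaving out each mouse for the tissue comparison was chosen after seeing the data and gave 0.52 to 0.58.

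The numbers of list genes called were less stable, and the cause was not tested. In liver, one fit of all groups gave 1 (week 4), 0 (week 8), 2 (week 20) and 1 (week 24), no filter gave 0 (week 12), 2 (week 16) and 1 (week 24), and median ratio scaling gave 0 (week 12). In islets, no filter gave 1 (week 8) and 15 (week 16), median ratio scaling 1 (week 8), 6 (week 12) and 5 (week 24), and one fit 6 (week 20) and 6 (week 24). Without 1 mouse at a time the liver counts ran from 1 to 2 (week 8), 0 to 2 (week 12), 0 to 5 (week 16) and 1 to 2 (week 20), and the islet counts from 1 to 5 at weeks 8 and 12, 6 to 9 (week 16), 0 to 8 (week 20) and 2 to 3 at week 24. Of the 10 genes most like Adgrv1 in liver, 5 were among the 10 highest by Spearman's rho and 2 among those of the 24 HFD libraries alone.

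Values under 1 FPKM have at most 2 digits, which touches Adgrv1 in islets and most ankle link genes in liver. The number of reads behind a value is unknown, and 4 mice per group limit each weekly exact test to p = 0.029 at best (0.057 with 3 against 4).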
